A study of Homo sapiens with 6 samples.

Results

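The cytosolic heat shock proteins and HSF1, the transcription factor that switches their genes on, were followed in HCT116 cells treated with TIC10. The members were given by name: HSPA1A, HSPA1B, HSPA8, HSPH1, DNAJB1, DNAJA1, HSP90AA1, HSP90AB1, HSPB1 and HSF1. These are 10 of the 20046 genes that have a named probe on the array, and 13 probes carry their symbols. HCT116 is an established human colorectal carcinoma line, and per the series' design text the cells of both groups lacked p53. Treated cells received 10 µM TIC10, a small molecule also called ONC201, and control cells 0.05% DMSO, both in fresh medium, with harvest at 48 h. Each group had 3 Illumina bead arrays. The labels call them replicates and do not say whether each came from its own culture. The p-values therefore cover array-to-array spread, which may be technical only. In bulk RNA such as this, fewer cells of a type and less RNA per cell cannot be told apart.

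HSP70 proteins such as HSPA1A, HSPA1B and HSPA8 hold unfolded protein chains and release them in a cycle driven by ATP. J-domain proteins, here DNAJB1 and DNAJA1, bring clients and start ATP hydrolysis, and HSPH1 (HSP105) resets the cycle by nucleotide exchange. HSP90 (HSP90AA1 and HSP90AB1) completes the folding of kinases, steroid receptors and other signalling proteins, many of them needed by tumour cells, and HSPB1 (HSP27) holds aggregation-prone proteins without ATP. In unstressed cells HSF1 is held inactive by these chaperones. When damaged proteins occupy them, HSF1 trimers bind heat shock elements, inverted repeats of the letters GAA, and raise transcription of the same genes.

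The chaperone transcripts were lower in TIC10-treated cells, and the transcript of HSF1 did not pass the test. Of 9 members bright enough to test, 8 were lower and 0 higher (limma, Benjamini-Hochberg adjusted p under 0.05 over 14534 genes). Over all genes tested, 13.4% were lower and 10.4% higher, 23.8% in all. The members' median change was -0.82 on the log2 scale, against -0.01 over all genes. HSPA1B fell most, by 1.90, and 4 members fell at least 2-fold. In 8 of 9 members all 3 TIC10 arrays lay below all 3 DMSO arrays, which held for 23.1% of all genes tested, while 41.6% did not overlap in either direction. Genes at least as bright as DNAJB1, the dimmest of the 8, were lower in 21.9% of 1463 cases and changed in either direction in 36.9%, with a median change of -0.02. That limit was set after the values were seen. With 3 arrays a group, the smallest p that exact permutation of 1 gene allows is 0.1.

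**Figure D1:**
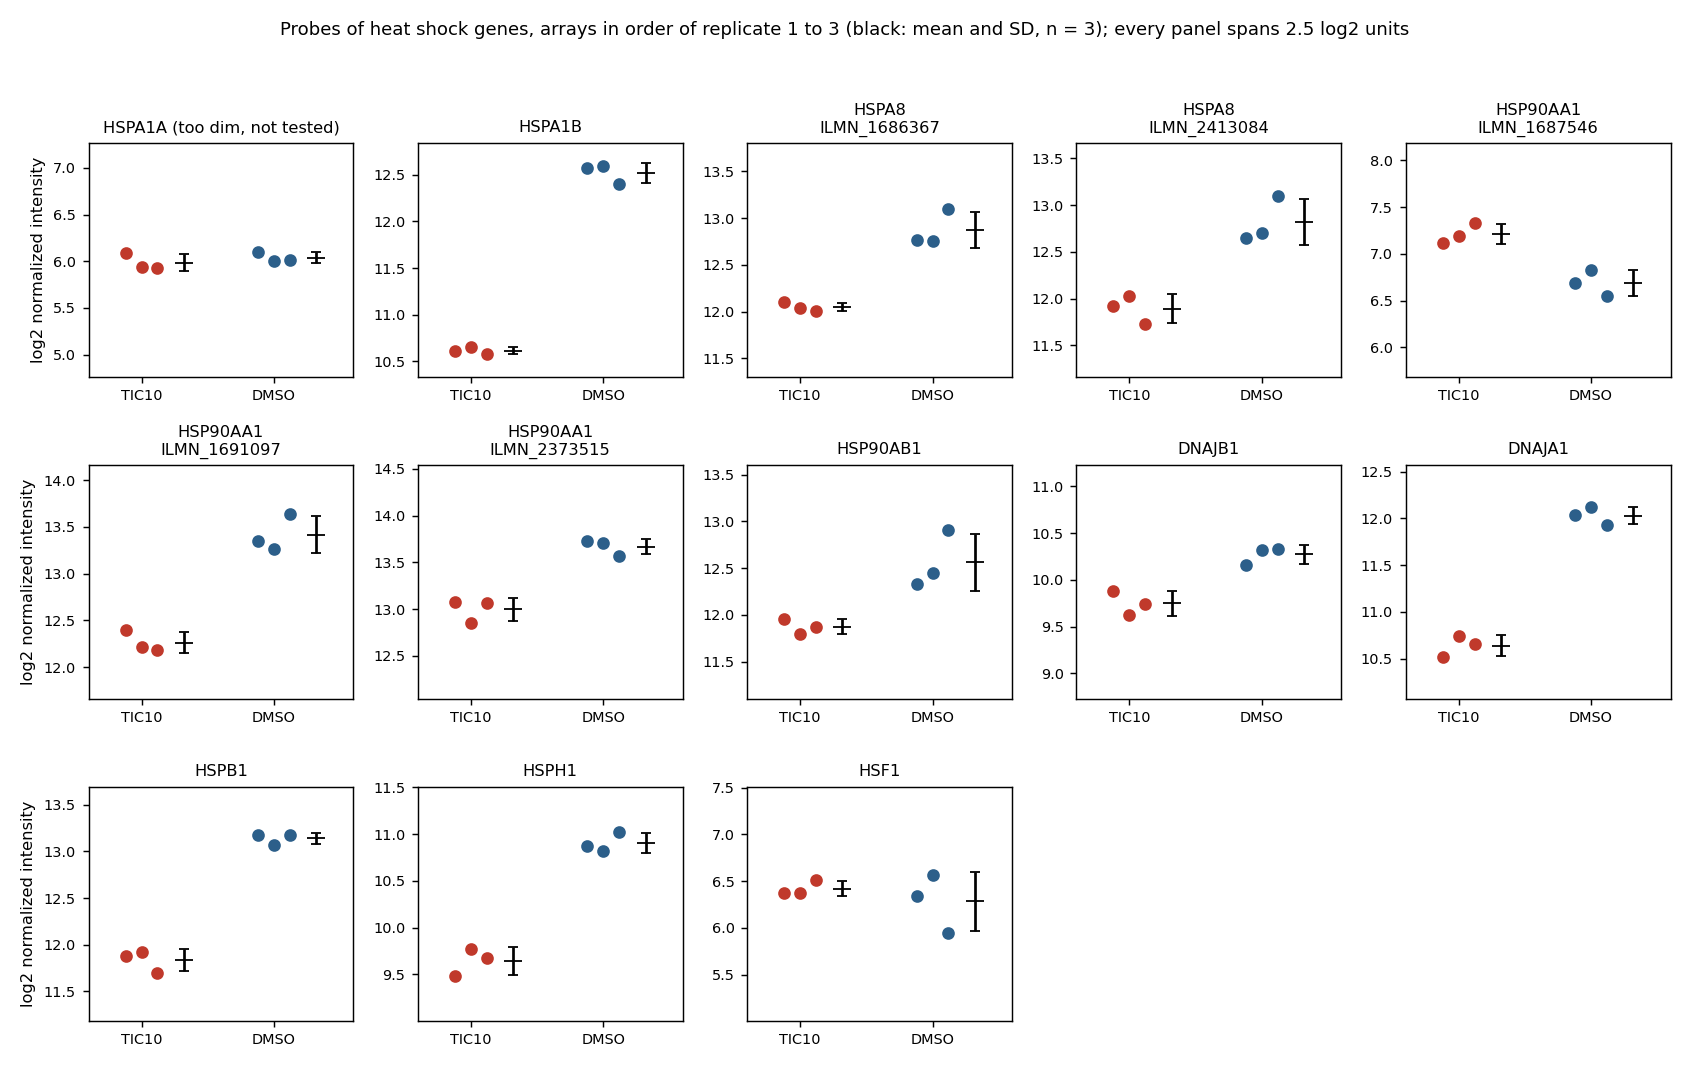
Normalized log2 intensity of each of the 13 probes on the 3 TIC10 arrays (red, left) and the 3 DMSO arrays (blue, right), with the mean and SD of each group in black. In 10 of the 12 tested probes every TIC10 array lies below every DMSO array, in the HSP90AA1 probe ILMN_1687546 every TIC10 array lies above, and the HSF1 arrays overlap. Of all 29440 tested probes, 35.2% did not overlap, 17.9% with TIC10 below and 17.3% with TIC10 above.

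The arrays differed in brightness, which touches every value here. TIC10 arrays had summed intensities of 11613500 to 13115800 and DMSO arrays of 12775700 to 19128900, and DMSO replicate 3 was the brightest. Percentile 90 of the probes was 372 to 441 in the TIC10 group and 447 to 786 in the DMSO group. Quantile normalization sets all arrays to the same distribution, and the part of this difference in the results was not tested. With arrays scaled to one median instead, the median change of all genes was -0.15, the members' median was -0.99 and 7 of them were lower, where 13.8% of all genes were lower and 2.19% higher. The genes at least as bright as DNAJB1 had a median of -0.41 under that scaling. Without DMSO replicate 3, 8 members were lower with a median of -0.78, where 19.5% of all genes were lower and 16.8% higher (36.3% in all). Of 8 epithelial markers, EPCAM, CDH1, KRT8, KRT19 and CLDN7 lay above percentile 90 of every array, and VIL1 was dim. KRT18 lay between percentiles 42.7 and 81.7, and CLDN4 between percentiles 64.3 and 69.8. KRT18 read 46.6 on DMSO replicate 3, against 143.8 and 146.3 on DMSO replicates 1 and 2. Of 9 markers of blood, vessel, stromal and liver cells, 0 lay above percentile 90 on every array, summing to 1237 to 1427 in the TIC10 group and 835 to 1172 in the DMSO group. Among them CD68, a lysosomal protein known as a macrophage marker, rose by 1.78 ± 0.25 (SE; adjusted p = 0.00366). Its part in the chaperone results was not tested. PTPRC, CD3E, PECAM1, COL3A1 and HBB lay between percentiles 6.29 and 58.6, and ALB, COL1A1 and ACTA2 between percentiles 61.6 and 89.3. The number of arrays limits the precision.

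HSPA1B, a stress-inducible HSP70, had raw intensities of 1200.2, 1280.4 and 1408 on TIC10 replicates 1, 2 and 3, against 6093, 5617 and 7828 on DMSO replicates 1, 2 and 3. The groups lay far apart, and the highest TIC10 array read under the lowest DMSO array. After normalization the level was 10.62 ± 0.04 in TIC10 cells and 12.52 ± 0.11 in DMSO cells (log2 intensity, mean ± SD, n = 3 each). The level was 3.74-fold lower in TIC10 cells (log2 change -1.90, 95% interval -2.10 to -1.71, adjusted p = 0.000128). HSPA1A, the neighbouring gene that encodes a nearly identical HSP70, was read by 1 probe that stayed dim on all arrays. It read 43.5, 37.9 and 36.5 on TIC10 arrays and 48.2, 42.5 and 45.3 on DMSO arrays, between percentiles 22.4 and 52.8 of the array's probes. It was left out of the test as too dim. The groups overlapped, and no difference was detectable at this brightness. The probe sequences were not used here, so whether the bright HSPA1B probe also binds HSPA1A transcripts was not tested.

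The upstream sequences of this pair are shown because the copies share the heat shock element that HSF1 binds. Over the 250 bases before the annotated start (RefSeq, GRCh38.p14), 235 positions were identical in a global alignment, 93.6% with 14 mismatches and 2 gap positions. Both stretches lie on the plus strand of chromosome 6, at chr6:31815407-31815474 for HSPA1A and chr6:31827603-31827670 for HSPA1B. Capitals mark an element of the form GAANNTTC:
HSPA1A: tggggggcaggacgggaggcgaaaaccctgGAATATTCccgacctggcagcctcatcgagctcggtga
HSPA1B: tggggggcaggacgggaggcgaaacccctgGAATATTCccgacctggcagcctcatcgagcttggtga
The element starts 106 bases before the annotated start of HSPA1A and 105 bases before that of HSPA1B.

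HSPA8, the constitutive HSP70 known as HSC70, had 2 probes that gave like answers. ILMN_1686367 read 3606, 3549 and 3966 on TIC10 arrays, against 6710.2, 6278 and 10867 on DMSO arrays. DMSO replicate 3 stood well above the other DMSO arrays, and the groups did not overlap. Its level was 12.05 ± 0.05 in TIC10 cells and 12.87 ± 0.19 in DMSO cells, 1.77-fold lower (log2 change -0.82 ± 0.11 SE, adjusted p = 0.00279). ILMN_2413084 changed by -0.93 ± 0.14 (adjusted p = 0.0067 over all 29440 probes tested, of which 18.0% passed, 9.32% lower and 8.67% higher). HSPH1, the HSP110-type exchange factor, read 542, 671 and 739.6 on TIC10 arrays and 2003, 1669.9 and 3412 on DMSO arrays. All TIC10 arrays were low, and the DMSO arrays spread widely above them in raw intensity. After normalization the SD of HSPH1 was 0.15 in TIC10 cells and 0.10 in DMSO cells. HSPH1 was 2.39-fold lower (log2 change -1.26 ± 0.10, adjusted p = 0.000579).

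Both J-domain partners fell as well. DNAJA1 (HSP40 of class A) read 1128, 1356 and 1471 on TIC10 arrays, against 4292, 4076 and 6124 on DMSO arrays. The groups were widely separated, and the level was 10.64 ± 0.11 in TIC10 cells and 12.03 ± 0.09 in DMSO cells. The difference was 2.63-fold (log2 change -1.39 ± 0.09, adjusted p = 0.00029). DNAJB1, the partner of HSPA1A and HSPA1B in the attenuation of HSF1, read 719, 599 and 773 on TIC10 arrays and 1221, 1195 and 2123 on DMSO arrays. It was 1.44-fold lower (log2 change -0.52 ± 0.10, 95% interval -0.76 to -0.29, adjusted p = 0.0103). The normalized groups lay close, with the highest TIC10 array at 9.88 and the lowest DMSO array at 10.16. The difference between the changes of these genes was not tested.

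HSP90AA1, the inducible cytosolic HSP90, gave different answers by probe. ILMN_2373515, its brightest probe, read 8018, 6944 and 9053 on TIC10 arrays and 13702, 13091 and 13069.6 on DMSO arrays. The groups did not overlap, and the level was 1.59-fold lower (log2 change -0.67 ± 0.09, adjusted p = 0.00336). On DMSO replicate 1 this probe read 79.2% of the brightest probe of its array, and a limit of the scanner's range was not tested. ILMN_1691097 read 4454, 4036 and 4655 on TIC10 arrays, against 9835, 8743 and 13615 on DMSO arrays, a change of -1.15 ± 0.12 (adjusted p = 0.00158 over probes). ILMN_1687546, annotated to the same RefSeq transcript as ILMN_1691097, was dim and ran the other way. It read 97.3, 102.5 and 128 on TIC10 arrays and 86.7, 90.5 and 89.8 on DMSO arrays, so that all TIC10 arrays were above all DMSO arrays by a small margin. It rose by 0.52 ± 0.10 (adjusted p = 0.0132 over probes). That call was lost with arrays scaled to one median (adjusted p = 0.131), in the series matrix values (adjusted p = 0.98) and without TIC10 replicate 3 (adjusted p = 0.0542; 0.00868 to 0.98 over its alternatives).

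HSP90AB1, the constitutive HSP90, had the widest spread among DMSO arrays of the 8 members that fell. It read 3214, 2899.6 and 3548 on TIC10 arrays and 5206, 5050.0 and 10059 on DMSO arrays. DMSO replicate 3 read far above the other DMSO arrays, and the groups did not overlap. The level was 11.87 ± 0.08 in TIC10 cells and 12.56 ± 0.30 in DMSO cells, 1.62-fold lower (log2 change -0.69 ± 0.15, adjusted p = 0.0195). Leaving out a TIC10 array lost the call (adjusted p of 0.0578 to 0.072), as did arrays scaled to one median (adjusted p = 0.069; 0.00183 to 0.508 over its alternatives). Without DMSO replicate 3 it kept its call.

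HSPB1, which encodes HSP27, had the smallest SD among DMSO arrays of the tested members. It read 3025, 3269 and 3181 on TIC10 arrays, against 8692, 7515 and 11238 on DMSO arrays. The groups lay far apart, at 11.84 ± 0.12 in TIC10 cells and 13.14 ± 0.06 in DMSO cells. The level was 2.47-fold lower (log2 change -1.30 ± 0.09, adjusted p = 0.000299). HSF1 itself was dim, with 54.9, 55.1 and 64.6 on TIC10 arrays and 62.5, 72.5 and 41.7 on DMSO arrays. The groups overlapped, and DMSO replicate 3, the brightest array over all probes, gave the lowest HSF1 value. HSF1 differed by 0.14 ± 0.16 on the log2 scale (95% interval -0.25 to 0.52, adjusted p = 0.616). It differed by -0.03 without DMSO replicate 3. Its protein is regulated by binding partners, trimer formation and phosphorylation, which the arrays do not measure.

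**Figure D2:**
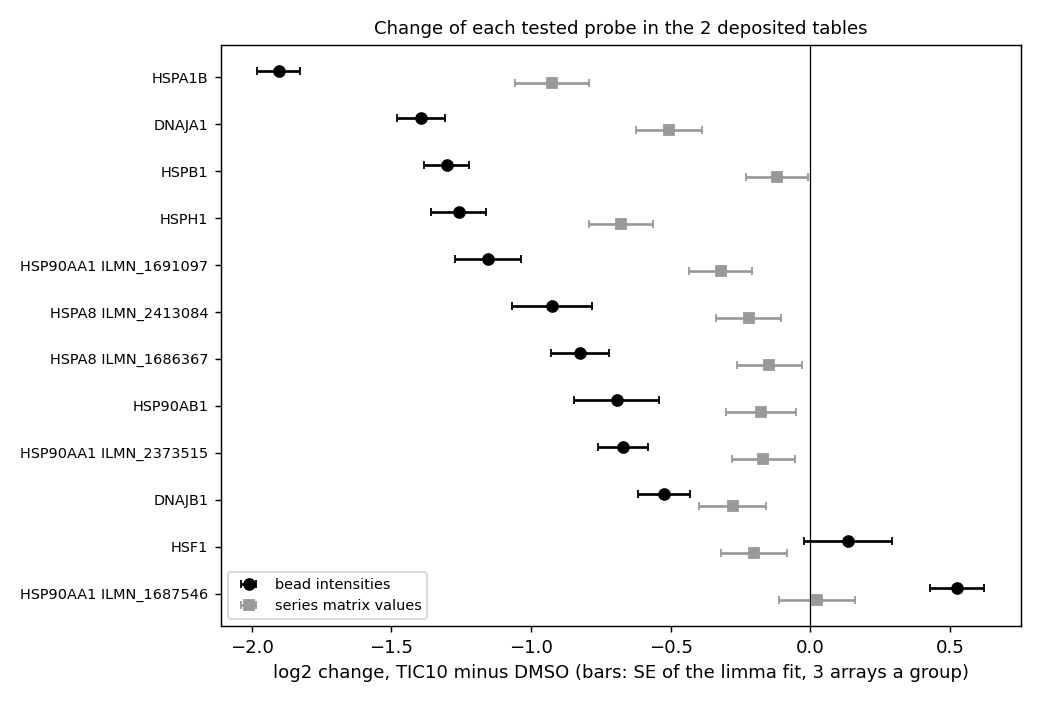
Log2 change of each of the 12 tested probes, TIC10 minus DMSO, in the bead intensities (black circles) and in the authors' series matrix values (grey squares), with SE bars. The black circles of 10 probes lie at -0.52 or below, and their grey squares lie nearer to 0, with HSPA1B, HSPH1 and DNAJA1 farthest to the left.

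The authors' series matrix holds their own processed and centred values of the same arrays, so it is no separate experiment. In it all 9 tested members lay below 0, HSF1 included, with a median change of -0.20 against -0.01 over all genes. Only 3 members passed there, all lower, where 3.02% of all genes were lower and 3.68% higher (6.70% in all). They were HSPA1B (-0.92, adjusted p = 0.000759), HSPH1 (-0.68, adjusted p = 0.00205) and DNAJA1 (-0.51, adjusted p = 0.0194). HSPB1 differed by -0.12 (adjusted p = 0.644), HSPA8 by -0.15 (adjusted p = 0.563), HSP90AA1 by -0.17 (adjusted p = 0.468), HSP90AB1 by -0.18 (adjusted p = 0.508) and DNAJB1 by -0.28 (adjusted p = 0.198). Over the 15 alternatives these were the highest adjusted p of those 5 genes. Of the tested members, 5 had all TIC10 values below all DMSO values in that table, as did 12.1% of all genes. The log base and scaling of the matrix are unknown here. Its deviations correlated with those of the bead intensities at only 0.16 to 0.45 per array across 14534 genes, which are not independent replicates.

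**Figure D3:**
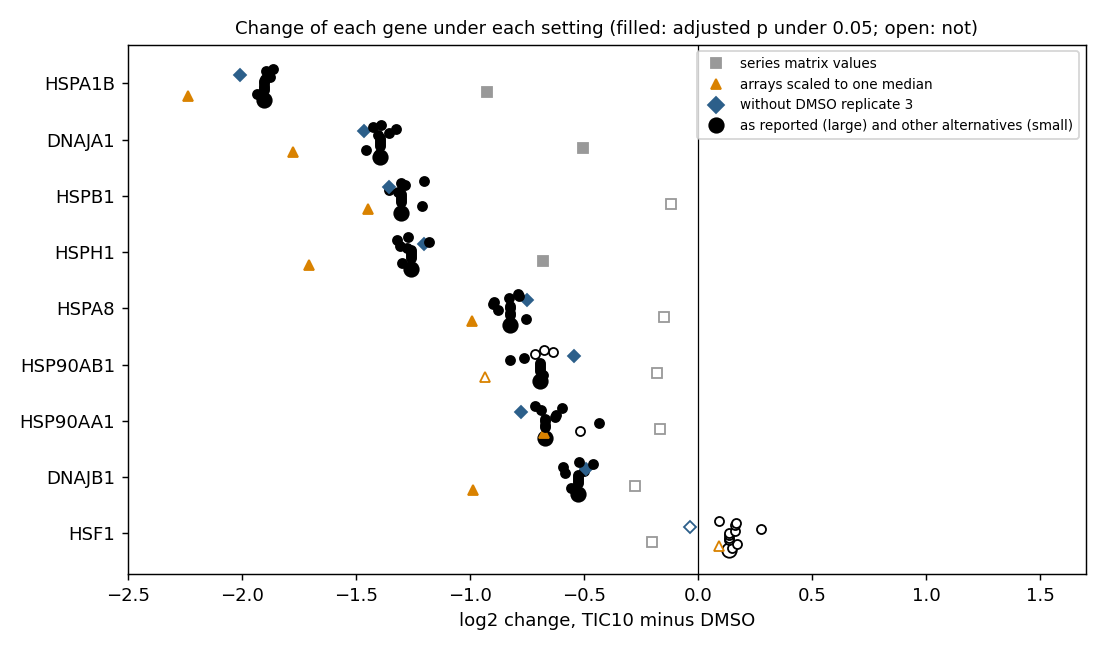
Log2 change of the 9 tested members, TIC10 minus DMSO, as reported and under each processing alternative, with filled symbols where the adjusted p was under 0.05. HSPA1B, DNAJA1 and HSPH1 are filled throughout, the grey squares of the series matrix are open for the other members, and HSF1 is open throughout and crosses 0.

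The 8 members that fell kept their call in 110 of 120 combinations of gene and alternative, and all 120 changes were negative. Part of these signs could not differ. Alternatives that changed only the filter, limma's variance step or the replicate block left each gene's change as it was and moved only its adjusted p. The mean of a gene's probes likewise left the change of members with 1 tested probe as it was. HSPA1B, DNAJA1 and HSPH1 passed under all 15 alternatives. HSPA8, HSPB1 and DNAJB1 missed the threshold in the series matrix only, and HSP90AA1 missed it there and with cyclic loess (adjusted p = 0.058; 0.000486 to 0.468 over its alternatives).

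The upstream windows of the members are shown because HSF1 is known to bind elements there. Of the 9 members with a window, 8 fell and HSPA1A was untested. The part of HSF1 binding in these falls was not tested. RefSeq windows (GRCh38.p14) were given for 9 members, with 14 annotated starts, and HSF1 was not searched. The 250 bases before each start were searched for GAANNTTC and TTCNNGAA, each its own reverse complement so that both strands are covered. The longer forms, GAANNTTC followed by NNGAA and TTCNNGAA followed by NNTTC, contain and overlap these. A short form was present in 8 of 14 windows, against 11.6% of 35116 windows of all genes. Counted by gene, it was present for 8 of 9 members, against 3813 of 27305 genes. A long form was present in 3 of 14 windows, of HSPA8, HSP90AA1 and HSP90AB1, against 0.441% of all windows. These members are known heat shock genes, so the count describes the list and tests nothing. The matching stretches of HSP90AA1 (chr14:102087075-102087162, minus strand), HSP90AB1 (chr6:44247748-44247873, plus strand), HSPA8 (chr11:123062149-123062221, minus strand), DNAJB1 (chr19:14518407-14518504, minus strand), DNAJA1 (chr9:33025045-33025112, plus strand) and HSPB1 (chr7:76302461-76302528, plus strand) follow, with the motif letters in capitals:
HSP90AA1: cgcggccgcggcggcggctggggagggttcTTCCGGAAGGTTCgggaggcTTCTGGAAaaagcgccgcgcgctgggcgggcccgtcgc
HSP90AB1: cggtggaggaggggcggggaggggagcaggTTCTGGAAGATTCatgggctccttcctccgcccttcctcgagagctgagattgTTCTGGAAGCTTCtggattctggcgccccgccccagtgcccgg
HSPA8: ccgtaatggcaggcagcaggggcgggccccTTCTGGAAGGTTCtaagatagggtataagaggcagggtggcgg
DNAJB1: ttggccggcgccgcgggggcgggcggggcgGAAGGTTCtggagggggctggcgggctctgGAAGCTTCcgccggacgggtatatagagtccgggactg
DNAJA1: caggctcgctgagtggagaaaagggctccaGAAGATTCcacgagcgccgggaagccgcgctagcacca
HSPB1: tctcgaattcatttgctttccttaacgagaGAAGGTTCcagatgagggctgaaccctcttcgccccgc
HSP90AA1, HSP90AB1 and DNAJB1 have several annotated starts, and the letters were found before a single start of each, which lies downstream of the first annotated start. HSPA8 has further matches that are not shown, GAAAGTTC from 230 and TTCCAGAA from 225 bases before its start. They overlap as a long form. HSPH1, which fell by 1.26, has no match in its window, which says only that these letters are not in it.

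**Figure D4:**
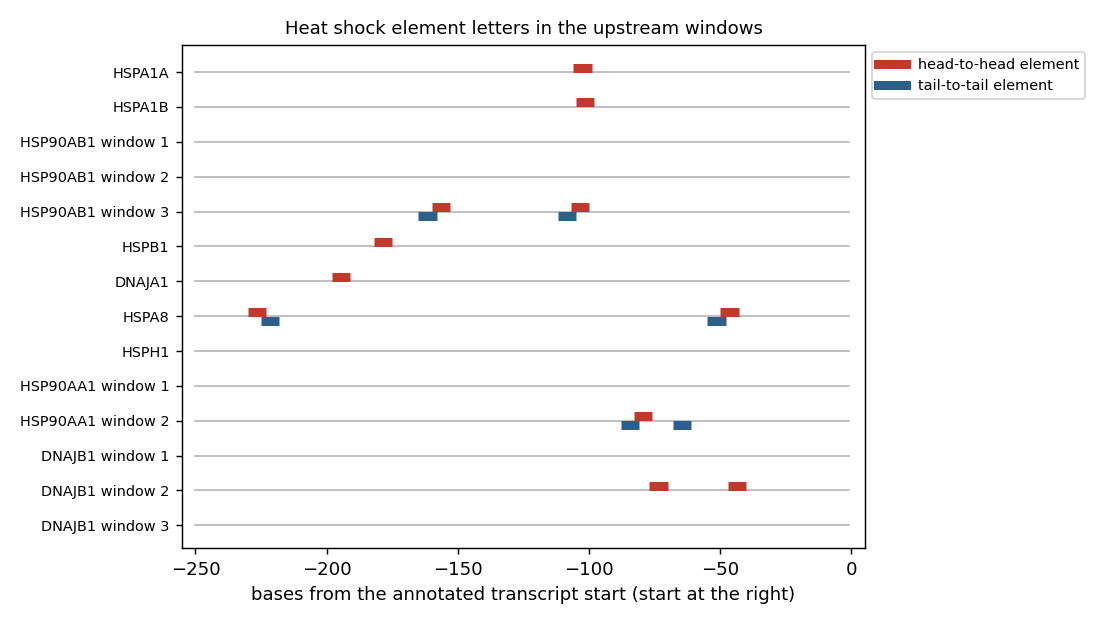
Positions of GAANNTTC (red, head-to-head) and TTCNNGAA (blue, tail-to-tail) in the 250 bases before each of the 14 annotated starts of 9 members, with the start at the right. HSP90AA1, HSP90AB1 and HSPA8 carry overlapping red and blue marks, HSPA1A, HSPA1B, HSPB1, DNAJA1 and DNAJB1 red marks only, and HSPH1 none.

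Genes that work with these chaperones gave a mixed picture. Over 7 related lists with 66 tested genes, 21 were lower and 3 higher, 36.4% against 23.8% of all genes, with a median change of -0.17 where the members' was -0.82. Of 19 tested HSP90 co-chaperones, 10 were lower and 1 higher, 57.9% against 23.8% of all genes, with a median of -0.50. CACYBP, a calcyclin-binding protein and HSP90 partner, changed by -1.65 ± 0.12 (adjusted p = 0.0004) and STIP1 (HOP), which joins HSP70 to HSP90, by -0.88 ± 0.15 (adjusted p = 0.00767). The co-chaperone CHORDC1 changed by -0.90 ± 0.21 (adjusted p = 0.022) and the ATPase RUVBL1 by -0.81 ± 0.19 (adjusted p = 0.0209). CDC37L1, a relative of the kinase co-chaperone CDC37 and the list's only gene called higher, changed by 0.64 ± 0.16 (adjusted p = 0.0321) and was named after its values were seen. No gene of the list was called higher with one-median scaling, in the series matrix (CDC37L1 0.05, adjusted p = 0.934), with the stricter filter, or when DMSO replicate 1, DMSO replicate 2, TIC10 replicate 1 or TIC10 replicate 3 was left out. Leaving out DMSO replicate 2 or a TIC10 array left 5 or 6 lower genes in the list, scaling to one median 6, and the series matrix 3. Over all genes, 1944 were lower with all arrays, 1431 without DMSO replicate 2 and 1180 to 1440 without a TIC10 array. Scaling to one median gave 13.8% of all genes lower, and the series matrix 3.02%. CHORDC1 lost its call without any one TIC10 array and with arrays scaled to one median. It also lost it with the mean of its probes (-0.54, adjusted p = 0.056). RUVBL1 lost its call without DMSO replicate 2 or TIC10 replicate 1 or 3, and with the replicate number as a block. With the mean of a gene's probes, RUVBL1 changed by -0.52 (adjusted p = 0.0384) and CACYBP by -1.03 (adjusted p = 0.000263).

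Relatives of HSP70 and their exchange factors gave 4 lower and 0 higher of 13, 30.8% against 23.8% of all genes, with a median of -0.16. HSPA14, a ribosome-associated HSP70, changed by -0.85 ± 0.07 (adjusted p = 0.000687). BAG3, an exchange factor that HSF1 induces, read 453, 484 and 464 on TIC10 arrays and 1259, 919 and 1413 on DMSO arrays. The BAG3 groups did not overlap, and it changed by -0.78 ± 0.14 (adjusted p = 0.00803; in the series matrix -0.49, adjusted p = 0.0421). The smaller falls of HSPA4L (-0.62 ± 0.17, adjusted p = 0.0409) and HSPA2 (-0.41 ± 0.12, adjusted p = 0.0478) were lost under 9 alternatives each. HSPA2 was dim, with 39.4, 43.4 and 42.0 on TIC10 arrays and 63.9, 57.1 and 108 on DMSO arrays. The DMSO arrays, where HSPA2 was high, sufficed for the brightness filter, and with the stricter filter it was not tested. This list kept 2 lower genes when DMSO replicate 1 or a TIC10 array was left out. Over all genes, 1180 to 1596 were lower then, against 1944 with all arrays. HSPA6, the strictly inducible HSP70, was dim and differed by -0.13 ± 0.12 (adjusted p = 0.53), against -0.45 in the series matrix (adjusted p = 0.0421). It was singled out after its values were seen.

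J-domain co-chaperones gave 2 lower and 1 higher of 15, 20% against 23.8% of all genes. DNAJC9, a co-chaperone of histones, changed by -1.04 ± 0.12 (adjusted p = 0.00149) and DNAJC8 by -0.77 ± 0.14 (adjusted p = 0.00858). In the series matrix neither passed, nor did STIP1 or RUVBL1. DNAJB2 rose by 1.08 ± 0.30 (adjusted p = 0.043), with DMSO replicate 3 at 8.46 against 9.57 and 9.64 on DMSO replicates 1 and 2. Its call was lost without any one TIC10 array, with arrays scaled to one median (adjusted p = 0.0756) and with cyclic loess (adjusted p = 0.056). It was also lost with no filter (adjusted p = 0.0634) and in the series matrix (0.23, adjusted p = 0.234). With the mean of its probes DNAJB2 rose by 0.61 (adjusted p = 0.0468). Of 3 tested small heat shock proteins, 1 was lower and 0 higher, 33.3% against 23.8% of all genes. It was HSPB8 (-0.45 ± 0.10, adjusted p = 0.0216), a call lost without any one array but DMSO replicate 3. That call was also lost in the series matrix (-0.20, adjusted p = 0.514). HSPB8 was dim, with 36.0, 40.3 and 41.8 on TIC10 arrays, under those arrays' medians of 43.0, 43.6 and 42.6. It read 69.0, 73.3 and 63.1 on DMSO arrays. The DMSO arrays, where HSPB8 was high, sufficed for the brightness filter, and with the stricter filter it was not tested. Of 4 tested HSF factors and regulators, 1 was lower and 0 higher, 25% against 23.8% of all genes, with a median of -0.05. It was HSBP1, a binding partner of HSF1 trimers. HSBP1 read 586, 668 and 626 on TIC10 arrays and 1952, 1636 and 3317 on DMSO arrays, a change of -1.26 ± 0.11 (adjusted p = 0.000644), and it did not pass in the series matrix (-0.32, adjusted p = 0.263).

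Known outputs of HSF1 other than the members gave 10 lower and 1 higher of 19, 57.9% against 23.8% of all genes. The list shares CACYBP, CHORDC1, STIP1, BAG3 and others with those above, so it is no separate count. The dim HSPB8 is among the 10 lower. HSPE1, the mitochondrial HSP10, changed by -0.97 ± 0.12 (adjusted p = 0.00213). ZFAND2A, a proteasome-associated zinc finger protein induced by arsenite, was the only output called higher and rose by 0.82 ± 0.15 (adjusted p = 0.00982). In the series matrix ZFAND2A rose by 0.55 (adjusted p = 0.0291), and with arrays scaled to one median it did not pass (0.40, adjusted p = 0.411). The series matrix gave 2 outputs higher and 6 lower, where 6.70% of all genes passed. The other output higher there was SERPINH1 (0.41, adjusted p = 0.0452), against -0.23 (adjusted p = 0.289) in the bead intensities. ZFAND2A and SERPINH1 were named after their values were seen. Without any one TIC10 array, 5 or 6 outputs of the list were lower. Over all genes, 1180 to 1440 were lower then, against 1944 with all arrays.

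The organelle relatives of the members were mixed. Of 7 tested, 2 were lower, HSPE1 and HSPD1 (HSP60, -0.44 ± 0.11, adjusted p = 0.0266), and 0 higher, 28.6% against 23.8% of all genes. The HSPD1 call was lost under 8 alternatives, among them leaving out DMSO replicate 1 or any one TIC10 array. HSPA5 (BiP), the HSP70 of the endoplasmic reticulum, differed by 0.18 ± 0.10 (adjusted p = 0.266), and HSPA9 (mortalin), that of mitochondria, by 0.52 ± 0.18 (adjusted p = 0.0842). HSP90B1 (GRP94) differed by -0.37 ± 0.14 (adjusted p = 0.12) and HYOU1, an exchange factor of BiP, by 0.73 ± 0.28 (adjusted p = 0.107). In the series matrix HSPA5 rose by 0.59 (adjusted p = 0.0117), HYOU1 by 0.86 (adjusted p = 0.00776) and HSPA9 by 0.52 (adjusted p = 0.0114). Without DMSO replicate 3, 3 organelle relatives were higher and 3 lower, where 36.3% of all genes passed. Whether the cytosolic members differ from these relatives was not tested.

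**Figure D5:**
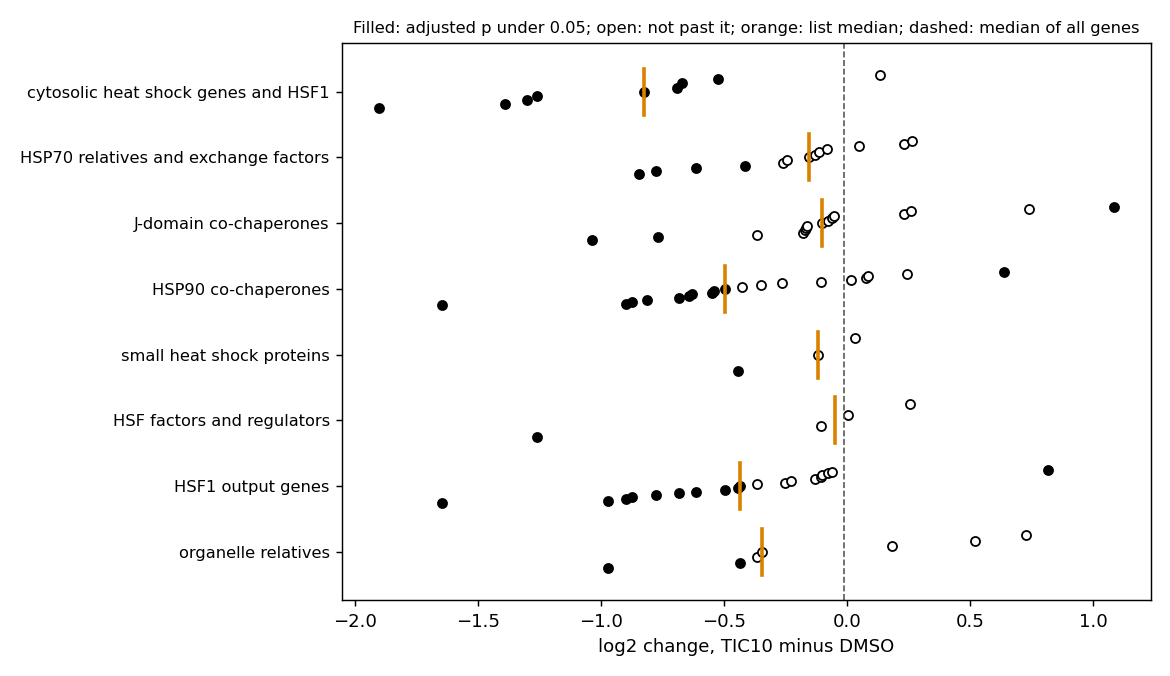
Log2 change of each tested gene, TIC10 minus DMSO, for the members and the 7 related lists, with filled points past an adjusted p of 0.05, an orange line at each list's median and a dashed line at the median of all genes. The 8 filled points of the members lie between -1.90 and -0.52, and the related lists reach to both sides of 0. Genes on several lists appear in each.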

How the data were processed

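Total RNA was profiled on 6 Illumina bead arrays (3 TIC10, 3 DMSO). The deposited bead table holds intensity values for 47319 probes that the authors call not normalized, with no detection p-values. Its Control columns were read as the DMSO samples of the same number. The deposited series matrix holds values taken as log2, processed and centred by the authors in a way not given in the sources used here. Intensities were corrected with normexp (offset 50), quantile normalized and taken to log2 in R 4.3.3 with limma 3.58.1. Probes above percentile 40 of their array on at least 3 arrays were kept (29440), and each of 14534 genes was its brightest kept probe. Of 47319 probes 30112 had 1 symbol, updated through RefSeq, 8 had several and 17199 none. TIC10 was compared with DMSO by limma (two-sided, Benjamini-Hochberg). A related list names up to 4 passing genes with the largest change. The script was tested on simulated data. The members, lists, tests and alternatives were chosen with earlier results of these data known. Some genes of the related lists were not analysed here. Same-numbered arrays did not deviate together (correlations of -0.15, 0.16 and -0.01), so no pairing was used.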

Additional observations from a re-analysis of the deposited data

How the results depend on the processing

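Over 15 alternatives, 291 of 357 values of 24 genes kept direction and side of the threshold, and 64 kept the direction but missed it. The 24 are the tested members and the genes named by the list rule. CDC37L1, ZFAND2A, SERPINH1, HSPA6, HSPA5, HSPA9, HSP90B1 and HYOU1, named outside that rule, are not counted. HSF1 changed sign in the series matrix (-0.20) and without DMSO replicate 3 (-0.033, the low end of -0.033 to 0.28 when each array was left out). In alternatives that changed only the filter, limma's variance step or the replicate block, the direction could not differ. The series matrix moved most counts: 535 genes higher and 439 lower over all genes, 3 members lower, 3 member probes lower and 0 higher, and 5 related genes higher and 8 lower. With arrays scaled to one median, 318 genes were higher over all genes and 2009 lower, 0 member probes were higher, and 0 related genes were higher. Leaving out each array gave 7 to 8 members lower and 0 higher, 9 to 10 member probes lower and 0 to 1 higher, 1 to 8 related genes higher and 12 to 24 lower, and 883 to 2351 genes higher and 1180 to 2732 lower over all genes. The fewest related genes were lower without TIC10 replicate 1, and the most without DMSO replicate 3. With the replicate number as a replicate block, 8 members were lower, 1264 genes higher and 1613 lower over all genes, and 4 related genes higher and 15 lower. TIC10 replicates 1 and 3 did not correlate best with their own number. The causes were not tested. Brightness limits HSPA1A and HSF1. The HSPA1A probe lay between percentiles 22.4 and 52.8 of the array's probes, and the HSF1 probe between percentiles 25.8 and 69.3.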
